A study of Drosophila melanogaster with 23 samples.

Results

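Glial marker genes were followed across 8 groups of Drosophila melanogaster samples measured on 23 one-colour Affymetrix arrays, 1 array per sample. The 7 genes were repo, wrapper, alrm, Gs2, Eaat1, moody and Mdr65. Each gene was represented by probe sets that the platform annotation gives to that gene alone, and by the one with the highest mean over the 23 arrays where there were several. Such a probe set was found for 6 of the 7 genes (1 for each), out of 11982 genes measured in the same way. No value is given for Eaat1, for which no such probe set was found.

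The study set circadian neurons against neurons in general by picking fluorescent brain cells by hand, with GFP or YFP expressed under a Gal4 driver, in larvae and in adults. The adult groups were large Pdf cells (3 arrays) and small Pdf cells (2 arrays), both from Pdf-Gal4, which drives expression in neurons that make the neuropeptide PDF; eyes (3 arrays), labelled as tissue with no driver named; and Elav cells (3 arrays) from Elav-Gal4, a driver for neurons in general. The larval groups, of 3 arrays each, were Pdf cells from Pdf-Gal4, cells from Tim-Gal4 combined with Pdf-Gal80, Tim cells from Tim-Gal4, a driver for cells that express the clock gene timeless, and Elav cells from Elav-Gal4. Pdf-Gal80 represses Gal4 in PDF neurons, and that group is called Tim Pdf-Gal80 here. The flies of every group lived in alternating periods of light (12 h) and dark (12 h), some 50 heads went into a sample near Zeitgeber time 12, and between 0.1 and 0.4 ng of RNA was amplified in 2 rounds. Replicates are called biological in the labels, with no word on whether animals were separate. The p-values therefore cover the differences between these samples, which may be technical. The number of arrays limits the precision.

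Glia of the fly brain fall into classes with different places and tasks. The homeodomain factor repo is expressed in nearly all glia outside the midline and is needed for their differentiation; wrapper is an immunoglobulin-family cell surface protein known from midline and cortex glia, which enclose axons or cell bodies. Astrocyte-like glia of the neuropil express the leucine-rich repeat gene alrm, and glia take up glutamate with Eaat1 and convert it to glutamine with glutamine synthetase, encoded by Gs2. The surface of the brain is sealed by barrier glia, where the G protein-coupled receptor moody acts in the subperineurial layer and the ABC transporter Mdr65 exports foreign compounds.

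The values are log2 expression values made with GCRMA, in which undetected genes gather near the bottom of the scale, and a log2 value of 5 was used as the limit of detection. In the description values under 5 were given no order. The tests and list medians used them unraised unless stated, so log2 differences can include distances below the limit. Between 43.4% and 50.9% of genes lay above 5 on an array, and the correlation between replicate arrays ran from r = 0.846 to 0.966 over genes. The PDF gene itself had a mean of 2.92 in Tim Pdf-Gal80 cells, where no array detected it, against 14.34 in larval Tim cells. The 8 measured genes of a neuron list had array means of 9.38 to 10.89 in larval Pdf and Tim cells and 11.46 to 11.94 in adult Elav cells, against 5.05 to 6.32 in larval Elav cells, with which the larval groups are compared. In Tim Pdf-Gal80 cells the neuron list means were 8.16, 9.26 and 6.47, with 3 of the 8 genes above 5 on replicate 3. Larval Elav cells were highest in 7 neuroblast and cell division genes, with list means of 11.44 to 12.14. These genes were also detected in larval Pdf cells, at 7.41 to 8.81 with 5 to 7 of them above 5. In larval Tim cells the means were 6.38 to 9.82, with 6 to 7 above 5. In bulk samples such as these, fewer cells of a type and less RNA per cell cannot be told apart.

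Most of the 6 measured glial genes were detected in larval Pdf and Tim cells and in the eye. In adults the large Pdf arrays had 2, 0 and 2 of the 6 genes above 5, both small Pdf arrays 0 and the eye arrays 5, 5 and 4, against 1, 0 and 0 on the Elav arrays. In larvae the Pdf arrays had 4, 5 and 3 above 5, the Tim Pdf-Gal80 arrays 1, 4 and 1 and the Tim arrays 4, 5 and 6, against 0, 0 and 1 on the Elav arrays. Each gene had its own order of groups: repo and wrapper were highest in larval Tim cells, alrm and Gs2 in larval Pdf cells, and moody and Mdr65 in the eye.

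**Figure D1:**
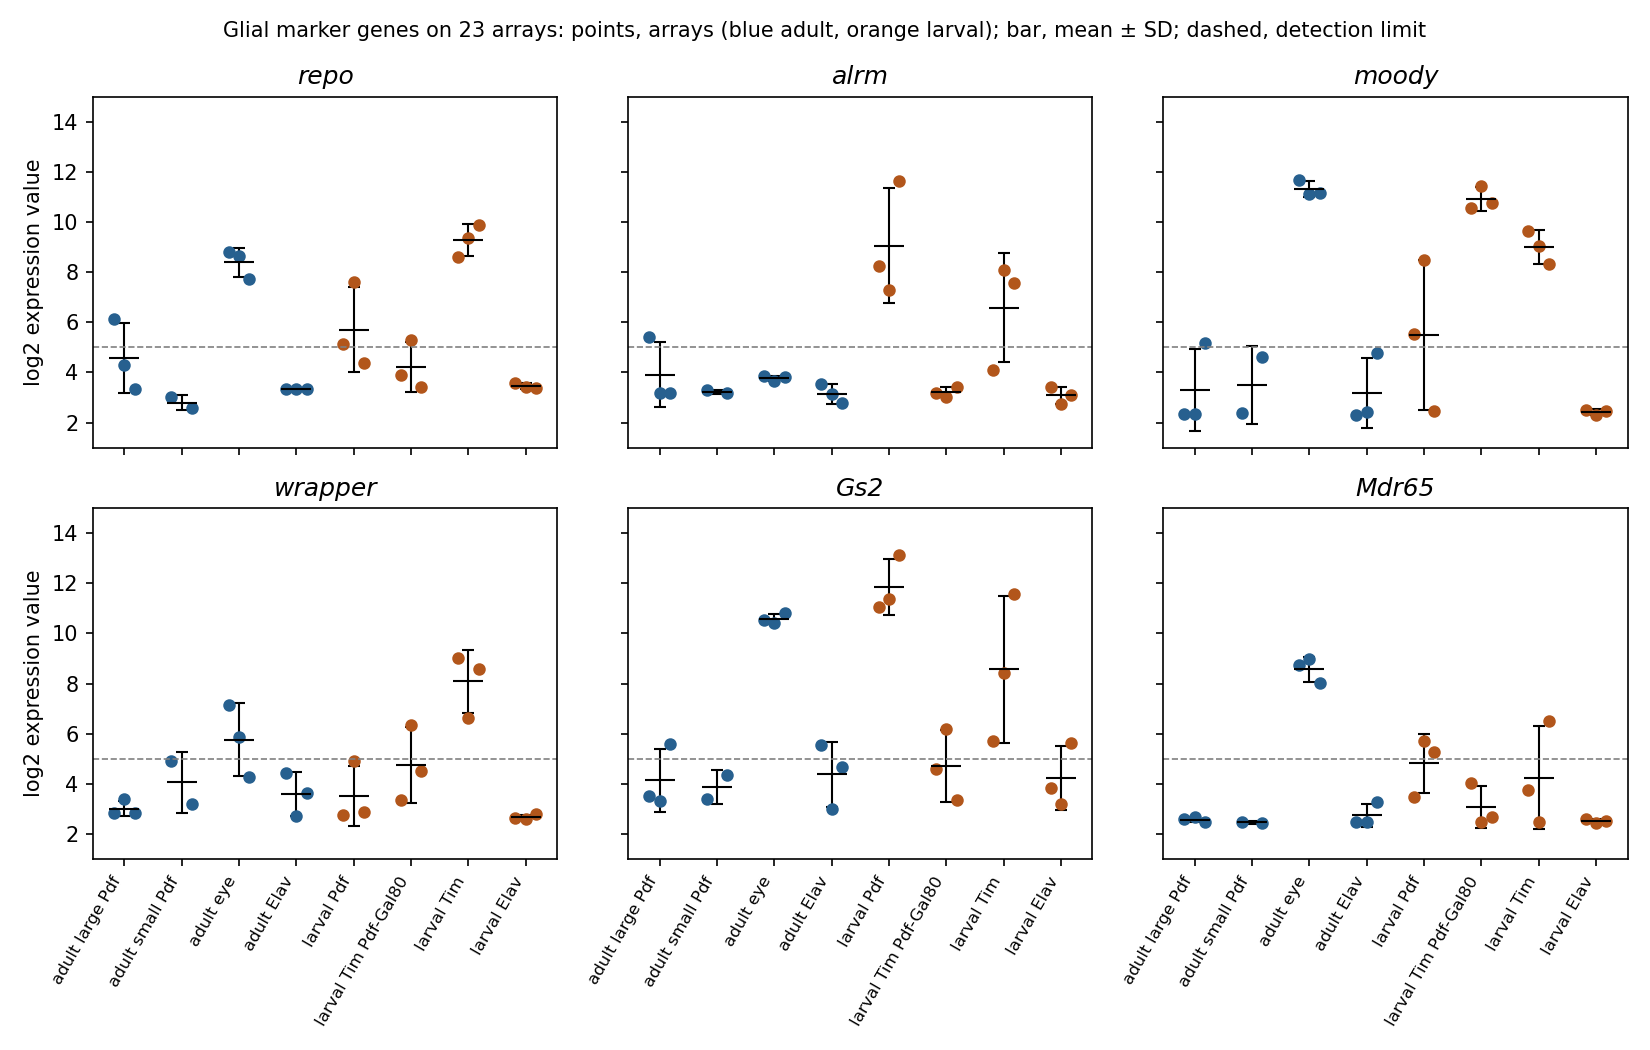
Log2 expression value of each of the 6 glial marker genes on all 23 arrays, by group (points, arrays; bar, mean ± SD; dashed line, limit of detection at 5). The eye is high for repo, moody, Gs2 and Mdr65, larval Pdf cells for alrm and Gs2, and larval Tim cells for repo, moody and wrapper, while both Elav groups lie at or under the limit apart from 2 Gs2 values.

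The glial identity factor repo read 6.11, 4.30 and 3.35 in adult large Pdf cells, 3.03 and 2.58 in small Pdf cells, and 8.80, 8.63 and 7.72 in the eye, against 3.35, 3.34 and 3.33 in adult Elav cells. In larvae it read 5.12, 7.61 and 4.39 in Pdf cells, 3.91, 5.31 and 3.43 in Tim Pdf-Gal80 cells and 8.61, 9.37 and 9.87 in Tim cells, against 3.59, 3.41 and 3.39 in Elav cells. The larval Tim and eye groups overlapped and both stood clear of the larval Pdf group, which in turn overlapped large Pdf and Tim Pdf-Gal80 cells. It was above 5 on 2 of 3 larval Pdf arrays and on 1 of 3 arrays each of Tim Pdf-Gal80 and large Pdf cells.

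The cell surface gene wrapper read 2.83, 3.39 and 2.85 in adult large Pdf cells, 4.94 and 3.22 in small Pdf cells, and 7.16, 5.89 and 4.26 in the eye, against 4.44, 2.72 and 3.66 in adult Elav cells. In larvae it read 2.76, 4.90 and 2.90 in Pdf cells, 3.37, 6.36 and 4.52 in Tim Pdf-Gal80 cells and 9.02, 6.65 and 8.60 in Tim cells, against 2.65, 2.60 and 2.79 in Elav cells. All 3 larval Tim arrays detected it, and 2 of 3 eye arrays and 1 of 3 Tim Pdf-Gal80 arrays did. No larval Pdf array reached 5, so wrapper was undetected in the cells in which alrm and Gs2 were highest.

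The astrocyte gene alrm read 5.40, 3.17 and 3.18 in adult large Pdf cells, 3.28 and 3.16 in small Pdf cells, and 3.85, 3.66 and 3.80 in the eye, against 3.55, 3.13 and 2.77 in adult Elav cells. In larvae it read 8.24, 7.30 and 11.65 in Pdf cells, 3.19, 3.03 and 3.43 in Tim Pdf-Gal80 cells and 4.12, 8.07 and 7.58 in Tim cells, against 3.42, 2.74 and 3.12 in Elav cells. Apart from 1 large Pdf array, only larval Pdf and larval Tim arrays detected alrm, all 3 of the first group and 2 of 3 of the second. It was below 5 on all eye arrays, where 4 of the other members were detected on every array.

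Glutamine synthetase Gs2 read 3.53, 3.34 and 5.60 in adult large Pdf cells, 3.41 and 4.36 in small Pdf cells, and 10.56, 10.41 and 10.81 in the eye, against 5.54, 2.99 and 4.66 in adult Elav cells. In larvae it read 11.04, 11.37 and 13.13 in Pdf cells, 4.59, 6.20 and 3.36 in Tim Pdf-Gal80 cells and 5.71, 8.44 and 11.56 in Tim cells, against 3.86, 3.20 and 5.65 in Elav cells. Every larval Pdf array was above every eye array, and the larval Tim arrays were widely spread and overlapped both the eye and the Tim Pdf-Gal80 group.

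The barrier receptor moody read 2.35, 2.36 and 5.19 in adult large Pdf cells, 2.40 and 4.61 in small Pdf cells, and 11.67, 11.10 and 11.14 in the eye, against 2.32, 2.44 and 4.79 in adult Elav cells. In larvae it read 5.51, 8.49 and 2.48 in Pdf cells, 10.55, 11.45 and 10.76 in Tim Pdf-Gal80 cells and 9.64, 9.05 and 8.32 in Tim cells, against 2.52, 2.29 and 2.46 in Elav cells. The eye and Tim Pdf-Gal80 groups overlapped, and both were above every larval Tim array. The larval Pdf arrays ran from undetected to the range of larval Tim cells.

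The barrier transporter Mdr65 read 2.59, 2.69 and 2.47 in adult large Pdf cells, 2.50 and 2.43 in small Pdf cells, and 8.75, 8.96 and 8.02 in the eye, against 2.49, 2.47 and 3.28 in adult Elav cells. In larvae it read 3.48, 5.73 and 5.26 in Pdf cells, 4.03, 2.50 and 2.69 in Tim Pdf-Gal80 cells and 3.77, 2.48 and 6.52 in Tim cells, against 2.60, 2.45 and 2.51 in Elav cells. The eye stood clear of all other groups, and outside it Mdr65 was detected on 2 larval Pdf arrays and 1 larval Tim array. In Tim Pdf-Gal80 cells, where the barrier receptor moody was near its highest, Mdr65 was below 5 on all 3 arrays.

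The comparison of larval Pdf with larval Elav cells asks what sets PDF neurons apart from neurons in general. Gs2 and alrm were far higher in Pdf cells, and repo, moody and Mdr65 were higher with smaller differences. Here called means a Benjamini-Hochberg adjusted p under 0.05 in limma's fit over all genes and a fold of at least 2. On this rule 5 of the 6 glial genes were called higher and 0 lower, against 13.3% called higher and 12.8% lower of the 7670 genes tested, and the median log2 difference was 2.69 for the 6 genes and -0.11 for all genes. Gs2 averaged 11.85 ± 1.13 in Pdf cells and 4.24 ± 1.27 in Elav cells (SD, n = 3 each), a log2 difference of 7.61 ± 1.12 (SE, adjusted p = 4.85e-05). Folds against an undetected group are lower bounds, the mean of the brighter group against that of the dimmer group with the dimmer group's values under 5 raised to 5, and for Gs2, detected on 1 of the 3 Elav arrays, the bound was at least 99.0-fold. The level of alrm was 9.06 ± 2.29 in Pdf cells and 3.09 ± 0.34 in Elav cells, at least 16.7-fold higher (log2 difference 5.97 ± 0.95, SE, adjusted p = 1.13e-04).

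The other 3 calls in larval Pdf cells were lost when single arrays were left out, and also with all values under 5 raised to 5. The differences were 2.25 ± 0.73 for repo (adjusted p = 0.0282, at least 1.63-fold), 3.07 ± 1.08 for moody (0.0418, at least 1.41-fold) and 2.30 ± 0.74 for Mdr65 (0.0272), each as log2 difference with its SE. The moody groups overlapped, and the Mdr65 mean of 4.82 in Pdf cells was itself below 5. With values under 5 raised to 5, the log2 difference was 0.91 for repo (adjusted p = 0.230). It was then 1.335 for moody (0.108) and 0.33 for Mdr65 (0.558). For wrapper the difference was 0.84 (adjusted p = 0.514, 95% interval -0.91 to 2.59). Without larval Pdf replicate 2 the adjusted p was 0.181 for repo, 0.266 for moody and 0.115 for Mdr65. Fewer members were also called without a larval Elav array, 3 without replicate 1, 2 without replicate 2 and 2 without replicate 3, and 4 without larval Pdf replicate 1 (moody at 0.0830) or replicate 3 (Mdr65 at 0.0865). Gs2 and alrm were called in all 6 of these fits and under all 8 other settings.

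The larval Pdf arrays also differed in markers of hemocytes, the blood cells of the fly. Of 11 hemocyte genes 9, 8 and 1 were above 5 on Pdf replicates 1, 2 and 3, with list means of 8.71, 8.08 and 3.61, against means of 3.51 to 4.60 on the larval Elav arrays. The defining markers Hml and He read 11.91 and 9.94 on replicate 1 and 9.69 and 9.56 on replicate 2, and were undetected on replicate 3 at 2.14 and 2.31. On that array Gs2 at 13.13 and alrm at 11.65 were at their highest of all 23 arrays. Both repo at 4.39 and moody at 2.48 were undetected there, whereas Mdr65 read 5.26 on it and 3.48 on replicate 1. The 5 tracheal and muscle genes averaged 5.19 on replicate 3, with 3 above 5, and 2.82 and 3.05 on replicates 1 and 2. The part of hemocyte RNA in the repo, moody and Mdr65 differences was not tested.

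Of 24 other glial genes tested, 5 were called higher and 1 lower in larval Pdf cells. Of all genes, 13.3% were called higher and 12.8% lower, so with both directions together the list was close to that share. The wider list was not confined to samples in which the 6 members were detected. Of its 9 barrier and septate junction genes, 8 to 9 were above 5 on the larval Elav arrays and 7 to 8 on the adult Elav arrays. Obp44a, of the odorant-binding protein family, was 100.3-fold higher at 14.87 ± 0.61 in Pdf cells, against 8.23 ± 3.45 in Elav cells, whose arrays ran from 5.70 to 12.16 (adjusted p = 0.00429). The glutamate and aspartate transporter gene family member Eaat2 was at least 15.7-fold higher (log2 difference 5.68 ± 1.18, SE, adjusted p = 0.00146), and the lipocalin NLaz at least 1.64-fold (3.24 ± 1.17, adjusted p = 0.0478). The gene called lower was gb, an amino acid transporter subunit, at 9.53 in Pdf cells and 11.22 in Elav cells (adjusted p = 0.0309). The calls of NLaz and gb were each lost in 5 of the 6 fits that left out an array, with adjusted p up to 0.206 and 0.0993, and that of Eaat2 in none. For Obp44a the log2 difference of 6.65 became 8.61 without larval Elav replicate 1, 5.39 without replicate 2 and 5.94 without replicate 3, and in a fit of only these 2 groups it did not pass (0.0573).

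Larval Tim cells, a set that takes in PDF neurons, were set against the same larval Elav arrays. All measured members but Mdr65 were called higher in Tim cells. That is 5 of the 6 genes called higher and 0 lower, against 13.8% of all genes called higher and 9.63% lower. The median log2 difference was 4.87 for the 6 genes and -0.09 for all genes. The identity factor repo averaged 9.28 ± 0.63 in Tim cells and 3.46 ± 0.11 in Elav cells, at least 19.4-fold higher (log2 difference 5.82 ± 0.73, SE, adjusted p = 1.19e-05). The barrier receptor moody averaged 9.00 ± 0.66 in Tim cells and 2.42 ± 0.12 in Elav cells, at least 16.0-fold higher (6.58 ± 1.08, adjusted p = 1.72e-04). For wrapper the means were 8.09 ± 1.27 in Tim cells and 2.68 ± 0.10 in Elav cells, at least 8.52-fold higher (5.41 ± 0.84, adjusted p = 9.83e-05). The calls of these 3 genes were kept under all 8 other settings and in all 6 fits that left out an array.

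Gs2 and alrm were higher in larval Tim cells too, with more spread between arrays. Gs2 was at least 10.2-fold higher (log2 difference 4.33 ± 1.12, SE, adjusted p = 0.00795) and alrm at least 3.01-fold (3.50 ± 0.95, adjusted p = 0.0108). Without larval Tim replicate 3, the array highest in Gs2, its adjusted p was 0.0538, and without larval Tim replicate 2, the array highest in alrm, that of alrm was 0.0732. In a fit of only these 2 groups neither passed (0.114 for Gs2, 0.0804 for alrm), nor did alrm with all values under 5 raised to 5 (0.0984). Mdr65 did not pass, with a difference of 1.73 (adjusted p = 0.102, 95% interval 0.19 to 3.28), but passed without larval Tim replicate 2 (2.62, adjusted p = 0.0156). Against 13.8% of all genes called higher and 9.63% lower, 6 of the 24 other glial genes were called higher and 0 lower. They included Obp44a (14.83 ± 0.46 in Tim cells, against 8.23 ± 3.45 in Elav cells, adjusted p = 0.00480, and 0.0503 in a fit of only these 2 groups), Eaat2 (at least 20.2-fold, adjusted p = 8.58e-04) and gcm, the transcription factor that switches cells to a glial fate, at 8.85 ± 0.26 in Tim cells and 4.04 ± 1.79 in Elav cells (at least 11.6-fold, adjusted p = 3.18e-04). Among the other calls, that of fabp was lost in all 6 fits that left out an array (up to 0.129) and that of Gli in 2 (up to 0.0731). Hemocyte list means on the Tim arrays were 4.55 to 5.05, with 3 to 5 of the 11 genes above 5, and Hml and He were undetected on all 3.

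**Figure D2:**
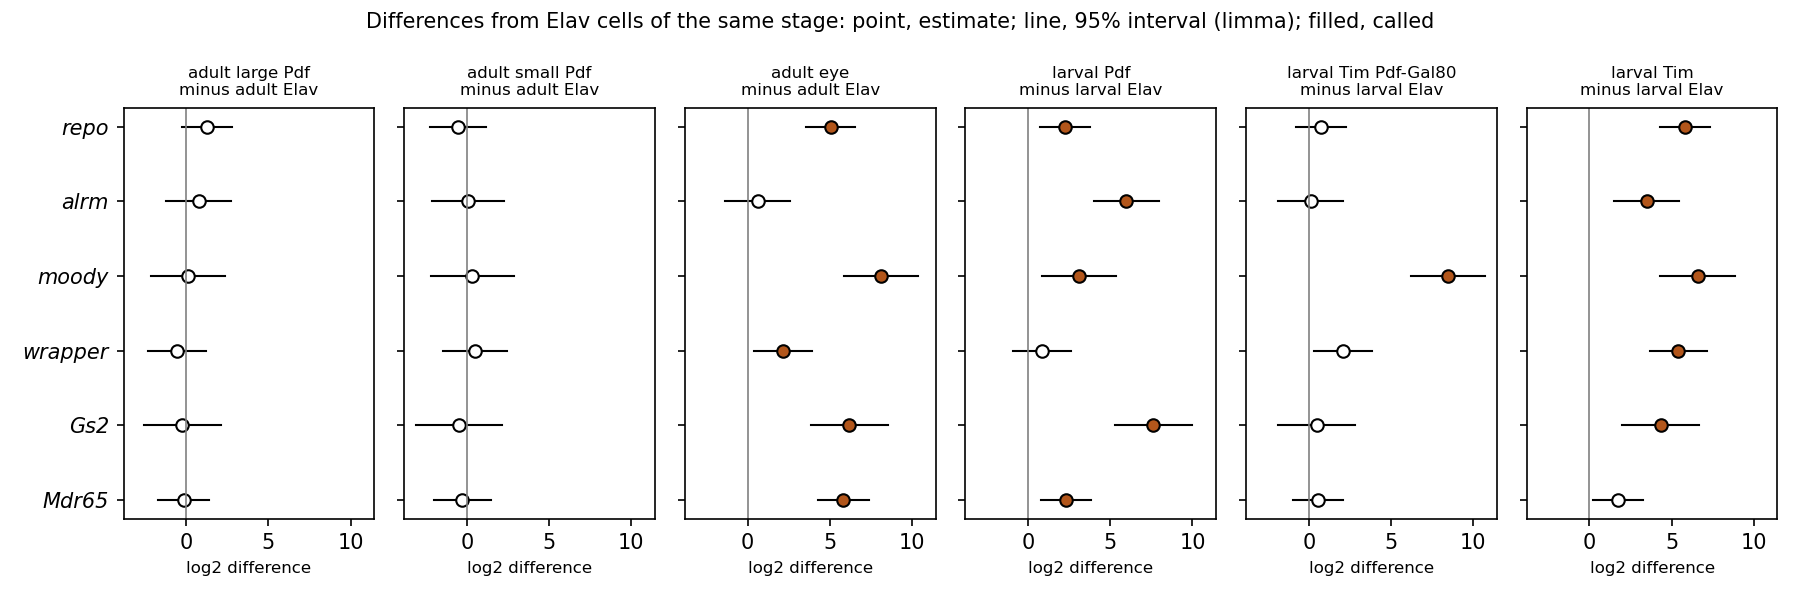
Log2 difference of each of the 6 glial genes from Elav cells of the same stage in 6 comparisons (point, estimate; line, 95% interval from limma; filled, called at adjusted p under 0.05 and a fold of at least 2). No point is filled for either adult Pdf group, 5 are filled for the eye, larval Pdf and larval Tim cells, and moody alone is filled for larval Tim Pdf-Gal80 cells.

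Larval Pdf and larval Tim cells were then set against each other. The identity factor repo and wrapper were lower in Pdf cells, and they were the only 2 of the 6 genes called, with 0 called higher, against 1.21% of all genes called higher and 1.68% lower. The median log2 difference was -1.47 for the 6 genes and -0.05 for all genes. Levels of repo averaged 5.71 ± 1.69 in Pdf cells and 9.28 ± 0.63 in Tim cells, at least 10.3-fold lower in Pdf cells (log2 difference -3.57 ± 0.73, SE, adjusted p = 0.00810). Those of wrapper averaged 3.52 ± 1.20 in Pdf cells and 8.09 ± 1.27 in Tim cells, at least 8.52-fold lower (-4.57 ± 0.84, adjusted p = 0.00324). In a fit of these 2 groups alone neither passed (0.278 for repo, 0.200 for wrapper), and repo did not pass without larval Pdf replicate 3 (0.0507).

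Gs2 and alrm were on average higher in larval Pdf than in larval Tim cells, but the groups overlapped. The log2 difference was 3.27 for Gs2 (adjusted p = 0.150, 95% interval 0.93 to 5.62) and 2.47 for alrm (adjusted p = 0.221, 95% interval 0.49 to 4.45). For moody it was -3.51 (adjusted p = 0.0923, 95% interval -5.77 to -1.25) and for Mdr65 0.57 (adjusted p = 0.891). Single arrays set 2 of these results: without larval Tim replicate 3 Gs2 passed (4.77, adjusted p = 0.0103), and without larval Pdf replicate 2 moody passed (-5.01, adjusted p = 0.00644). Of the 24 other glial genes 0 were called higher and 2 lower, gcm at 4.61 ± 2.40 in Pdf cells and 8.85 ± 0.26 in Tim cells (adjusted p = 0.00703, and 0.332 in a fit of only these 2 groups) and zyd, a sodium-calcium exchanger of cortex glia, at 3.43 ± 1.08 in Pdf cells and 6.92 ± 1.78 in Tim cells (adjusted p = 0.0314, lost in 3 of 6 fits that left out an array, up to 0.169).

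**Figure D3:**
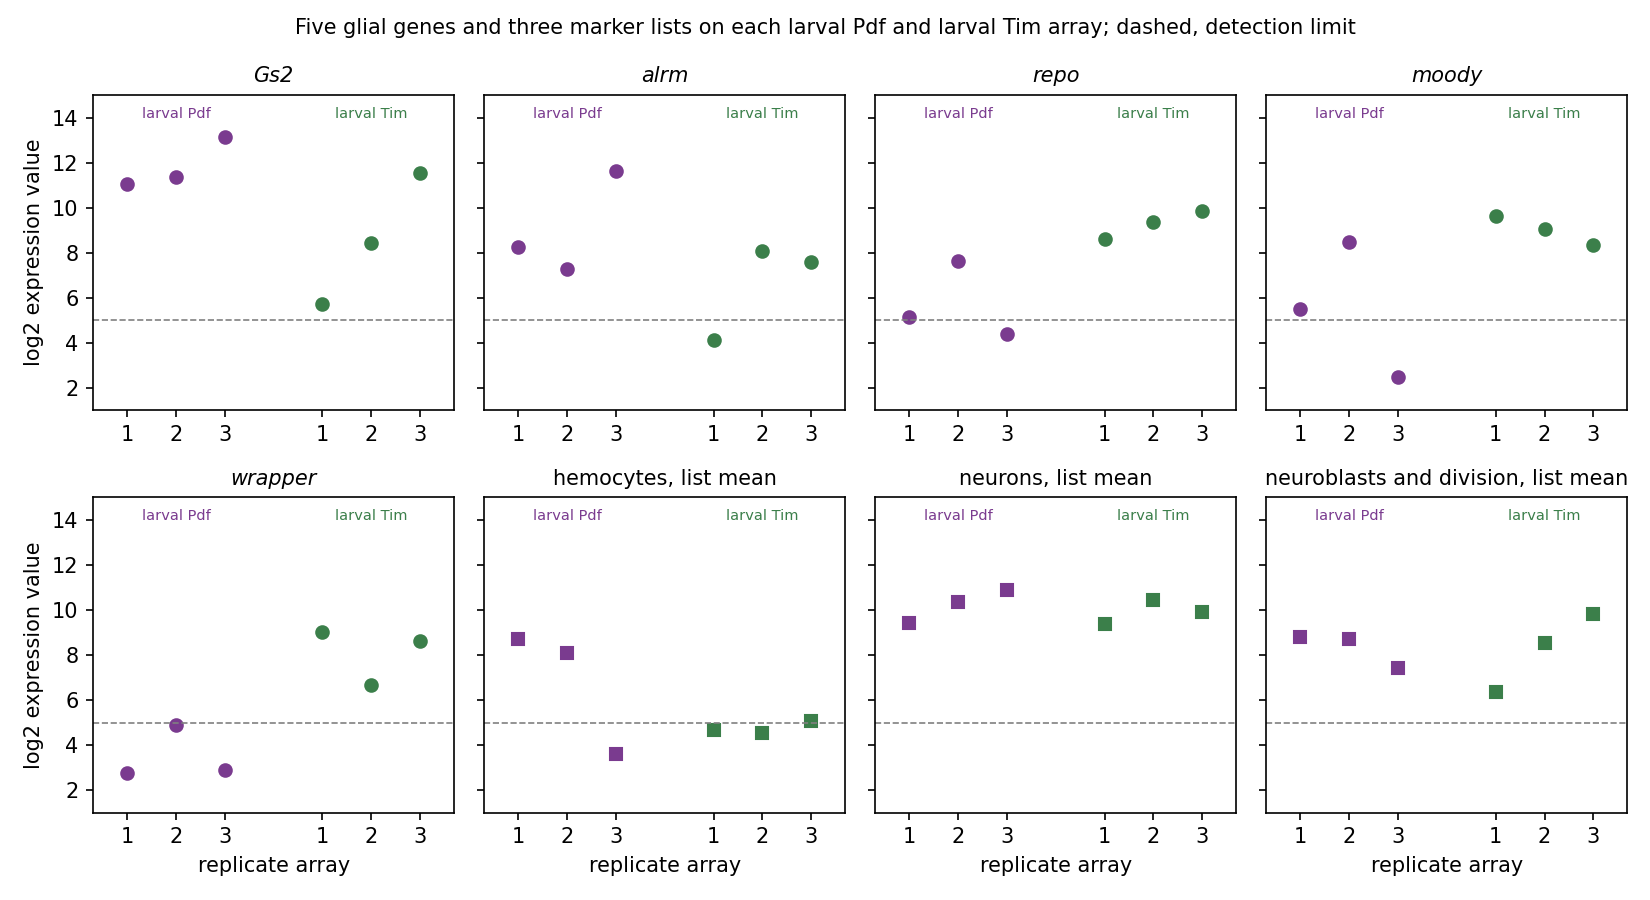
Log2 values of 5 glial genes and the mean of 3 marker lists on each array of larval Pdf and larval Tim cells (dashed line, limit of detection at 5). Gs2 and alrm peak on Pdf replicate 3, where the hemocyte list mean is 3.61 and repo and moody are undetected, while repo, moody and wrapper are above 5 on every Tim array.

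Adding Pdf-Gal80 to Tim-Gal4 removes the PDF neurons from the labelled set, and the comparison of Tim Pdf-Gal80 with Tim cells asks what differs without them. The identity factor repo, wrapper, alrm and Gs2 were lower in Tim Pdf-Gal80 cells, while moody was high in both groups. The neuron list means were lower as well, at 6.47 to 9.26 in Tim Pdf-Gal80 cells and 9.38 to 10.45 in Tim cells, and so were those of the neuroblast and division list, at 4.06 to 4.70 in Tim Pdf-Gal80 cells and 6.38 to 9.82 in Tim cells. Their part in the glial differences was not tested. Of the 6 genes 0 were called higher and 4 lower (repo, wrapper, alrm and Gs2), against 3.87% of all genes called higher and 12.4% lower, with a median log2 difference of -3.35 for the 6 genes and -0.33 for all genes. The mean of repo was 4.22 ± 0.98 in Tim Pdf-Gal80 cells and 9.28 ± 0.63 in Tim cells, at least 18.1-fold lower in Tim Pdf-Gal80 cells (log2 difference -5.06 ± 0.73, SE, adjusted p = 2.23e-04). That of wrapper was 4.75 ± 1.51 in Tim Pdf-Gal80 cells and 8.09 ± 1.27 in Tim cells, at least 6.22-fold lower (-3.34 ± 0.84, adjusted p = 0.0111). For alrm the means were 3.22 ± 0.20 in Tim Pdf-Gal80 cells and 6.59 ± 2.15 in Tim cells, at least 3.01-fold lower (-3.37 ± 0.95, adjusted p = 0.0208). Gs2 was at least 9.01-fold lower (-3.85 ± 1.12, adjusted p = 0.0248), with overlapping groups and 1 of 3 Tim Pdf-Gal80 arrays above 5.

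Of these 4 calls only that of repo was kept in all 6 fits that left out an array and under all 8 other settings. The number called was 2 without larval Tim replicate 2 (alrm at 0.115, Gs2 at 0.0643), 1 without larval Tim replicate 3 (alrm at 0.0964, wrapper at 0.0503, Gs2 at 0.158) and 1 without Tim Pdf-Gal80 replicate 1 (alrm at 0.0515, wrapper at 0.0597, Gs2 at 0.0614). It was 3 without Tim Pdf-Gal80 replicate 2 (alrm at 0.0509) and 2 without Tim Pdf-Gal80 replicate 3 (alrm at 0.0536, Gs2 at 0.121). In a fit of only these 2 groups the adjusted p was 0.108 for alrm, 0.0922 for wrapper and 0.178 for Gs2.

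The barrier receptor moody averaged 10.92 ± 0.47 in Tim Pdf-Gal80 cells and 9.00 ± 0.66 in Tim cells, with every Tim Pdf-Gal80 array above every Tim array, but the difference of 1.92 ± 1.08 (SE) did not pass (adjusted p = 0.244, 95% interval -0.34 to 4.17). It passed once values under 5 were raised to 5 (adjusted p = 0.0363). Gliotactin, Gli, a junction protein of barrier glia, moved the same way and passed: it read 9.07, 11.86 and 10.58 in Tim Pdf-Gal80 cells, against 7.99, 6.79 and 6.66 in Tim cells, 10.2-fold higher (log2 difference 3.35 ± 0.63, SE, adjusted p = 0.00170, and 0.0586 in a fit of only these 2 groups). Against 3.87% of all genes called higher and 12.4% lower, 1 of the 24 other glial genes (Gli) was called higher and 6 lower. The largest were gcm, undetected at 2.56 ± 0.17 in Tim Pdf-Gal80 cells and 8.85 ± 0.26 in Tim cells (at least 14.4-fold, adjusted p = 1.19e-04), Obp44a at 9.47 ± 4.11 in Tim Pdf-Gal80 cells and 14.83 ± 0.46 in Tim cells (adjusted p = 0.0271, lost in 5 of 6 fits that left out an array, up to 0.172), and spi, an EGF receptor ligand, at 8.81 ± 0.29 in Tim Pdf-Gal80 cells and 11.02 ± 0.74 in Tim cells (adjusted p = 0.00666).

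**Figure D4:**
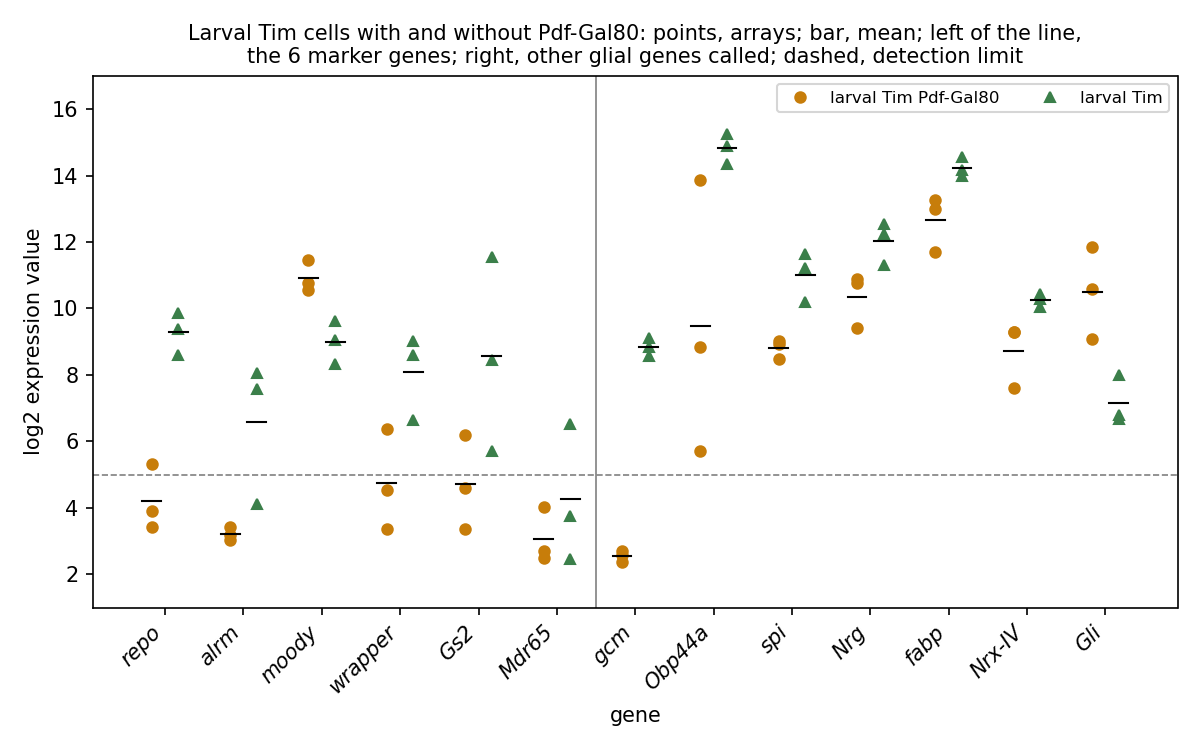
Log2 values on each array of larval Tim Pdf-Gal80 cells (circles) and larval Tim cells (triangles) for the 6 glial marker genes and, right of the line, the 7 other glial genes called (short bar, mean; dashed line, limit of detection at 5). Most genes lie lower in Tim Pdf-Gal80 cells, gcm to below 5 on all 3 arrays, whereas Gli and moody lie higher on every array.

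Against larval Elav cells, Tim Pdf-Gal80 cells had 1 of the 6 genes called higher and 0 lower, against 14.7% of all genes called higher and 25.4% lower. That gene was moody, at 10.92 ± 0.47 in Tim Pdf-Gal80 cells and 2.42 ± 0.12 in Elav cells, at least 60.6-fold higher (log2 difference 8.50 ± 1.08, SE, adjusted p = 6.91e-06). The call was kept under all 8 other settings and in all 6 fits that left out an array. For wrapper the difference was 2.07 (adjusted p = 0.0554), and it passed without Tim Pdf-Gal80 replicate 1 (2.76, adjusted p = 0.0218). The remaining 4 genes differed by 0.13 to 0.76, with adjusted p between 0.450 and 0.961. Tim Pdf-Gal80 replicate 2 alone detected repo, wrapper and Gs2, at 5.31, 6.36 and 6.20. Of the 24 other glial genes 4 were called higher, led by Gli (at least 36.8-fold, adjusted p = 1.72e-06), zyd (at least 6.14-fold, adjusted p = 8.33e-05) and Eaat2 (at least 3.43-fold, adjusted p = 0.0237, groups overlapping). Called lower were 3, the lipocalin GLaz (2.97 in Tim Pdf-Gal80 cells and 4.99 in Elav cells, both below 5), spi and gb. The calls of Eaat2 and gb were lost in 4 of the 6 fits that left out an array (up to 0.168 and 0.164) and that of GLaz in 2 (up to 0.109).

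The ring gland is the endocrine gland beside the larval brain. Of 7 of its genes for hormone synthesis, a list chosen with these values known, all 7 were above 5 on every Tim Pdf-Gal80 array, with list means of 11.70 to 11.96, against 4 to 7 on the larval Tim arrays, with means of 5.85 to 10.93. On larval Tim replicate 3, the lowest, dib, sro and nvd were undetected while moody read 8.32, against 9.64 and 9.05 on the other Tim arrays. All 7 genes were undetected in the eye, where moody averaged 11.30 and Gli 10.36, and on the larval Elav arrays. The part of ring gland RNA in the moody and Gli levels was not tested. The larval comparisons share arrays with one another, so their values are not independent.

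In adults no glial gene of the 6 was called between either Pdf group and adult Elav cells. For large Pdf cells 0 of 6 were called in limma, against 9.06% of all genes called in either direction. For small Pdf cells 0 of 6 were called, against 8.75%. None of the 6 genes had an unadjusted p under 0.05 in either comparison. The largest difference was that of repo in large Pdf cells, 1.25 (adjusted p = 0.352, 95% interval -0.27 to 2.77), carried by 1 array at 6.11. For Gs2 the difference was -0.24 (95% interval -2.58 to 2.10) in large and -0.51 (-3.13 to 2.11) in small Pdf cells, and for alrm 0.77 (-1.22 to 2.75) in large and 0.07 (-2.15 to 2.29) in small Pdf cells. With nearly all of these values under 5, differences below the limit could not be measured.

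Between large and small Pdf cells 0 of the 6 genes were called in limma, against 3.62% of all genes in either direction. The largest difference was 1.79 for repo (adjusted p = 0.285), the 1 gene with an unadjusted p under 0.05. Of the 24 other glial genes, the septate junction gene Lac was lower in large Pdf cells, at 3.13 ± 0.29, against 7.88 ± 0.51 in adult Elav cells (at least 7.34-fold, adjusted p = 8.25e-04), and so was NLaz, at 4.45 ± 3.09 in large Pdf cells and 8.78 ± 0.45 in adult Elav cells (at least 6.83-fold, adjusted p = 0.0240). The call of Lac was kept in all 6 fits that left out an array and that of NLaz was lost in 5 (up to 0.124). In small Pdf cells 1 was called, kune, a claudin of septate junctions, at 8.54 ± 0.61, against 6.80 ± 0.58 in adult Elav cells (adjusted p = 0.0464, lost in 4 of 5 fits that left out an array, up to 0.316). NLaz also separated the Pdf groups, at 4.45 ± 3.09 in large and 10.51 ± 0.16 in small Pdf cells (at least 22.7-fold, adjusted p = 0.0112, lost without either small Pdf array, up to 0.0773).

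The eye held barrier markers and glutamine synthetase at high levels, while alrm was below the limit on every eye array. Of the 6 genes 5 were called higher than in adult Elav cells and 0 lower, against 14.4% of all genes called higher and 25.5% lower, with a median log2 difference of 5.44 for the 6 genes and -0.50 for all genes. The mean of moody was 11.30 ± 0.32 in the eye and 3.18 ± 1.39 in adult Elav cells, at least 78.9-fold higher (log2 difference 8.12 ± 1.08, SE, adjusted p = 7.27e-06). That of Mdr65 was 8.58 ± 0.49 in the eye and 2.75 ± 0.46 in adult Elav cells, at least 11.9-fold higher (5.83 ± 0.74, adjusted p = 4.14e-06). Gs2 was at least 42.6-fold higher (6.20 ± 1.12, adjusted p = 2.21e-04), with 1 of 3 adult Elav arrays above 5, and repo at least 10.5-fold (5.05 ± 0.73, adjusted p = 1.89e-05). These 4 calls were kept under all 8 other settings and in all 6 fits that left out an array.

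For wrapper the eye and adult Elav groups overlapped, with a log2 difference of 2.16 ± 0.84 (SE, adjusted p = 0.0457). The adjusted p was 0.218 without eye replicate 1, 0.113 without eye replicate 2, 0.169 without adult Elav replicate 2 and 0.0798 without adult Elav replicate 3, and 0.0831 in a fit of only these 2 groups. The wrapper call was also lost without the filter (0.0839), after quantile normalisation (0.0551) and with a replicate block (0.0570). With values under 5 raised to 5 the wrapper difference was 1.01 (adjusted p = 0.147). For alrm the difference was 0.62 (adjusted p = 0.642, 95% interval -1.36 to 2.60), with both groups below 5. Among the 24 other glial genes 14 were called higher and 4 lower, against 14.4% of all genes called higher and 25.5% lower. Obp44a was at least 170.0-fold higher (13.03 ± 1.10 in the eye and 5.51 ± 1.15 in adult Elav cells, adjusted p = 9.16e-04), Gli at least 41.2-fold (adjusted p = 6.72e-08) and GLaz at least 11.5-fold (adjusted p = 3.60e-06). The lower ones included NLaz, the adhesion protein Nrg and the septate junction protein cora, with log2 differences of -3.07, -2.46 and -1.82. The NLaz call was lost in 5 and the cora call in 3 of the 6 fits that left out an array, and with all its probe sets averaged Nrg differed by 0.70, the other way (adjusted p = 0.235).

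Eye samples held markers of several cell types. A list of 6 photoreceptor genes averaged 13.21 to 14.07 on the eye arrays and at most 3.12 on any other. The 11 hemocyte genes averaged 7.38 to 8.40 in the eye with 8 to 9 of them above 5, against 4.20 to 5.26 in adult Elav cells, although He was undetected on all eye arrays and Pxn was lower in the eye, at 6.30, 6.50 and 4.88, against 11.06, 9.92 and 10.47 in adult Elav cells. The 5 fat body genes averaged 7.68 to 9.02 in the eye and 3.36 to 4.80 in adult Elav cells, and the 5 tracheal and muscle genes 5.74 to 6.71 in the eye and 3.07 to 5.19 in adult Elav cells. The part of these cells in the eye levels of Gs2, repo, moody and Mdr65 was not tested.

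Between stages, Gs2 and alrm were lower in adult than in larval Pdf cells, and no glial gene of the 6 was called between adult and larval Elav cells. Between the Elav groups limma called 0 of the 6 genes, none with an unadjusted p under 0.05, against 43.7% of all genes called in either direction. The largest difference among the 6 was 0.92 for wrapper (adjusted p = 0.409), with all arrays below 5. Adult large Pdf cells had 0 genes called higher than larval Pdf cells and 3 lower, against 11.3% of all genes called higher and 15.2% lower. Gs2 averaged 4.16 ± 1.26 in large Pdf cells and 11.85 ± 1.13 in larval Pdf cells, at least 100.1-fold lower (log2 difference -7.69 ± 1.12, SE, adjusted p = 7.43e-05). For alrm the means were 3.92 ± 1.28 in large Pdf cells and 9.06 ± 2.29 in larval Pdf cells, at least 15.2-fold lower (-5.14 ± 0.95, adjusted p = 5.69e-04, and 0.0583 in a fit of only these 2 groups). The Mdr65 difference was -2.24 ± 0.74 (adjusted p = 0.0307), with only 2 larval Pdf arrays above 5, and its call was lost without any one of large Pdf replicates 1, 2 or 3 (0.0644, 0.0603 and 0.0756) or of larval Pdf replicates 2 or 3 (0.132 and 0.0878).

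Adult small Pdf cells likewise had 0 genes higher than larval Pdf cells and 3 lower, against 4.82% of all genes called higher and 7.50% lower. Gs2 averaged 3.89 ± 0.67 in small Pdf cells (n = 2) and 11.85 ± 1.13 in larval Pdf cells, at least 115.1-fold lower (log2 difference -7.96 ± 1.25, SE, adjusted p = 3.47e-04). For alrm the bound was at least 16.7-fold (-5.84 ± 1.06, adjusted p = 0.00117, and 0.127 in a fit of only these 2 groups) and for repo at least 1.63-fold (-2.91 ± 0.81, adjusted p = 0.0243). The repo call was lost without larval Pdf replicate 2 (0.112) and without small Pdf replicate 1 (0.0998) or replicate 2 (0.125), where a lone small Pdf array is assumed to vary like the other groups. Against larval Pdf cells, 1 of the 24 other glial genes was higher and 4 lower in large Pdf cells, and 1 higher and 5 lower in small Pdf cells. Obp44a showed the largest of these differences, -9.34 in large Pdf cells (at least 638-fold lower, adjusted p = 2.77e-04) and -8.48 in small Pdf cells (at least 347-fold lower, adjusted p = 0.00363, and 0.0792 without small Pdf replicate 1), and Lac followed in large Pdf cells at -6.50 (adjusted p = 2.08e-05).

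Whether the difference between Pdf and Elav cells itself depended on the stage was tested as a difference of differences in the same fit. Gs2 and alrm passed for both adult Pdf groups. For Gs2 the Pdf minus Elav difference was -0.24 in large Pdf cells and -0.51 in small Pdf cells, against 7.61 in larvae, and for alrm it was 0.77 in large Pdf cells and 0.07 in small Pdf cells, against 5.97 in larvae. The differences of these were -7.85 ± 1.58 (SE, adjusted p = 0.00166) for Gs2 and -5.20 ± 1.34 (adjusted p = 0.0101) for alrm with large Pdf cells, where 17.7% of all genes passed in either direction. With small Pdf cells, where 15.3% passed, they were -8.12 ± 1.68 (adjusted p = 0.00252) for Gs2 and -5.90 ± 1.42 (adjusted p = 0.00737) for alrm. The other 4 genes did not pass, with adjusted p between 0.0972 and 0.906.

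In adult Elav cells 5 of the 24 other glial genes were called higher and 6 lower than in larval Elav cells. Together this is close to the share of all genes, of which 43.7% were called in either direction. Eaat2 was at least 54.9-fold higher at 11.37 ± 0.46 in adult Elav cells, against 3.88 ± 2.52 in larval Elav cells (adjusted p = 3.51e-05), and NLaz at least 13.7-fold at 8.78 ± 0.45 in adult Elav cells, against 2.48 ± 0.10 in larval ones (adjusted p = 2.05e-04). The sodium pump subunit gene nrv2 was 18.9-fold lower (log2 difference -4.24, adjusted p = 7.40e-06) and gb 9.57-fold lower (-3.26, adjusted p = 8.94e-05).

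The 6 members did not share one pattern over the 23 arrays. With values under 5 raised to 5, the most alike pairs were repo and wrapper (Pearson r = 0.77) and alrm and Gs2 (r = 0.71), and the least alike was alrm with moody (r = -0.11). The order of pairs depended on the measure. Spearman rank correlations of unraised values, which also rank values under 5, ran from 0.26 for alrm with moody to 0.68 for repo with alrm. For repo with wrapper the Spearman value was 0.56. Arrays of a group share their cell type, so the 23 points are not independent. Over all 7670 genes, the 3 most like repo were NKCC (r = 0.94), a cation-chloride cotransporter, CG32032 (0.93) and CG9686 (0.92). The last 2 were also the most like wrapper (0.83 each), followed by CG15082 (0.83). CG15082 averaged 12.09 in larval Tim cells but was undetected in the eye, with a mean of 2.25 there, against 5.77 for wrapper.

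For alrm the most alike genes were CG4409 (r = 0.90), CG5023 (0.89) and MFS9 (0.88), and for Gs2 they were CG31999 (0.86), Hexo2 (0.85) and nkt (0.85). The pattern of moody was closest to that of the cytoskeletal adaptor Vinc (r = 0.95), CG8547 (0.93) and CG15083 (0.93). That of Mdr65 was closest to Nepl15 (0.98), Mal-A5 (0.98) and CG14275 (0.96). The Spearman correlations of unraised values for these genes were 0.34, 0.75 and 0.46. Nepl15 and CG14275 averaged 2.70 and 2.20 in larval Pdf cells, where 2 arrays detected Mdr65. Of the 6 arrays on which Mdr65 was above 5, the 3 eye arrays were highest. No member was among the 3 genes most like another member.

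**Figure D5:**
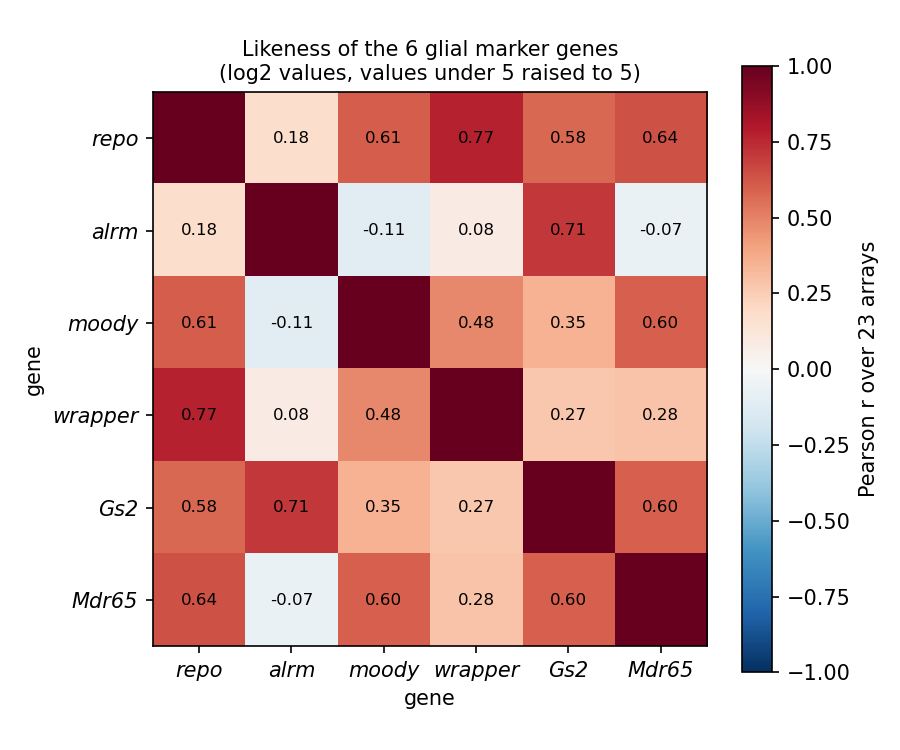
Pearson correlation between each pair of the 6 glial marker genes over 23 arrays (log2 values, values under 5 raised to 5; colour, r from -1 to 1). The pairs repo with wrapper (0.77) and alrm with Gs2 (0.71) are highest, and alrm with moody (-0.11) is lowest.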

How the data were processed

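The 23 samples were put into 8 groups by their titles. What was deposited is a table of log2 expression values per probe set, which the authors computed with GCRMA according to the submitters' processing notes. No version or settings of GCRMA, and no genome build, are given in the sources used here. The platform annotation assigned 13647 of 18952 probe sets to 1 gene, 402 to several and 4720 to none, 183 of all being controls. Symbols of 13544 were updated through RefSeq's gene table. Genes above a log2 value of 5 on at least 2 arrays were tested, 7670 of 11982, all 6 measured members among them.

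One limma model (version 3.58.1, R 4.3.3) of 8 group means was fitted over all arrays, with eBayes and 15 residual degrees of freedom, for 12 comparisons and 2 differences of differences. Tests were two-sided and adjusted by Benjamini-Hochberg over the 7670 genes. In simulated data for larval Pdf against larval Elav cells (7670 genes), 31% of genes changed by 2 log2 units and 75% of those changed by 4 were called. Of the calls, 7.02% were false. Far fewer genes were changed there, with normal noise around a single mean per gene, than the 13.3% called higher and 12.8% called lower in the data. The rates therefore need not hold for the data.

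The members, gene lists and tests were chosen with earlier results of these data known. Named were every member in every group, up to 3 called genes in each direction per comparison out of 24 other glial genes tested (27 measured), and the 3 genes most correlated with each member. Alternatives changed the filter, the limit, the normalisation, the summary of probe sets, array weights, a replicate block, the groups fitted and each array in turn. No batch could be tested, since the labels used here name none. No pair of arrays was identical.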

Additional observations from a re-analysis of the deposited data

Results flagged for a closer look

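In 4 results the difference between Pdf and Elav cells in adults was itself different from that in larvae, by limma's test of the difference of differences. For Gs2 this value was -7.85 on the log2 scale with adult large Pdf cells and -8.12 with adult small Pdf cells. For alrm it was -5.20 with adult large Pdf cells and -5.90 with adult small Pdf cells. Gs2 and alrm were each above 5 on 1 adult large Pdf array and on no adult small Pdf array, against all 3 larval Pdf arrays. With values under 5 raised to 5 the value for Gs2 was -6.61 with large and -6.81 with small Pdf cells, and for alrm it was -3.93 with large and -4.06 with small Pdf cells. The larval Pdf and larval Elav arrays enter all 4 values, which are therefore not independent of one another.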

How the results depend on the processing

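The members had 32 called differences, and 1224 values were computed under the alternatives. Of these values 1072 kept their direction and side of the threshold, 72 lost the call, 15 gained it, 0 reversed a call, and 65 changed sign without a call. The values include differences never called, for which staying uncalled counts as kept, so 1072 is no measure of how stable the 32 calls were. Many of the 32 were lost under at least 1 alternative. In larval Pdf against Elav cells the members called, 5 at first, were 3 without the filter, 2 with values under 5 raised to 5, 3 after quantile normalisation and 2 in a fit of only the groups compared. That last fit, with fewer samples for the spread, gave 3 members for larval Tim against Elav, 1 for Tim Pdf-Gal80 against Tim, 0 for larval Pdf against Tim, and 1 for each adult Pdf group against larval Pdf. Of the other glial genes it called 3 for larval Pdf against Elav, 3 for larval Tim against Elav, 2 for Tim Pdf-Gal80 against Tim, 0 for larval Pdf against Tim, 1 for large Pdf and 0 for small Pdf against adult Elav, 0 for large against small Pdf, 7 for adult against larval Elav and 2 for small Pdf against larval Pdf. Array weights raised their count to 11 both for larval Tim against Elav and for Tim Pdf-Gal80 against Tim. Without the filter it was 1 for larval Pdf against Tim, 1 for large Pdf against adult Elav and 7 for adult against larval Elav, and for larval Pdf against Tim it was 1 also with values raised to 5 and after quantile normalisation. Of 72 differences of other glial genes called, 32 were kept under all alternatives. Only Nrg in the eye reversed, to 0.70 with the mean of all its probe sets. The cause was not tested where none is given.

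Leaving out each array in turn, the members called ranged from 2 to 4 for larval Pdf against Elav, 4 to 5 for larval Tim against Elav, 1 to 2 for Tim Pdf-Gal80 against Elav, 1 to 4 for Tim Pdf-Gal80 against Tim, 1 to 3 for larval Pdf against Tim, 2 to 3 for large and 2 to 4 for small Pdf against larval Pdf, and 4 to 5 for the eye. The differences of differences ranged from 2 to 3 with large and 2 to 4 with small Pdf cells. For other glial genes the ranges were 3 to 5 for larval Pdf, 4 to 6 for larval Tim and 4 to 6 for Tim Pdf-Gal80 against larval Elav. They were 3 to 8 for Tim Pdf-Gal80 and 1 to 2 for larval Pdf against larval Tim. Against adult Elav they were 1 to 2 for large Pdf, 0 to 1 for small Pdf and 13 to 18 for the eye. Large against small Pdf gave 0 to 1 and adult against larval Elav 6 to 11. Against larval Pdf they were 5 to 7 for large and 2 to 7 for small Pdf.

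Over the 9 comparisons with 3 pairs, correlations of same-numbered arrays ran from -0.317 to 0.220, and in none were all over 0.1. For Tim Pdf-Gal80 against Tim all 3 were positive, from 0.042 to 0.220. The labels do not say whether samples of the same number were handled together, and these correlations cannot exclude it. With a replicate block the members called were 4 for larval Pdf against Elav (moody at 0.0529) and 4 for the eye (wrapper at 0.0570), and 0 other glial genes were called for small Pdf against adult Elav. Differences between values under the limit of 5 could not be measured.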

Other observations

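Some genes of the wider glial list were high in adult sorted cells in which the 6 members were mostly undetected. Their level alone is therefore no measure of glia in these samples. Eaat2, of the glutamate and aspartate transporter family, had a log2 mean of 11.22 ± 0.44 in the large (SD, n = 3) and 11.14 ± 0.60 in the small (n = 2) adult Pdf cells, and of 11.37 ± 0.46 in adult Elav cells (n = 3). The engulfment receptor gene drpr averaged 11.62 ± 0.24 in the large and 11.42 ± 0.53 in the small cells, and 11.08 ± 0.03 in adult Elav cells. The lipocalin NLaz read 8.01, 2.76 and 2.58 in the large cells and 10.39 and 10.62 in the small ones.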
